A study of Mus musculus with 10 samples.

Results

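The cathepsin family was described here by 10 mouse genes, Ctsa, Ctsb, Ctsc, Ctsd, Ctsh, Ctsk, Ctsl, Ctso, Ctss and Ctsz, picked by symbol from the 55471 genes counted in every library. The cells were primary microglia, macrophages that live in the brain, of wild-type (WT) mice and kept in DMEM with serum. Gapmers had been given to them, which are antisense oligonucleotides whose target RNA is cleaved by RNase H. In 5 libraries, labelled knockdown, the gapmers were directed against 3222401L13Rik, a long noncoding RNA, and in the 5 control libraries they were control gapmers. Total RNA was sequenced. The labels do not say whether the replicates were separate cultures or animals, so the p-values measure the spread between these libraries, which may be technical.

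Cathepsins are proteases of the endolysosomal system that break down proteins delivered by endocytosis, phagocytosis and autophagy. Most are cysteine proteases of the papain type (Ctsb, Ctsc, Ctsh, Ctsk, Ctsl, Ctso, Ctss and Ctsz), whereas Ctsd is an aspartic protease and Ctsa a serine carboxypeptidase. They are made as inactive precursors and sorted to lysosomes largely by mannose 6-phosphate tags, and the cysteine proteases among them are held in check by cystatins. Microglia use them to digest engulfed material, to process antigens and endosomal Toll-like receptors, and, when secreted, to cut extracellular proteins.

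The deposited values were raw read counts per gene. In units of 1000000 reads, library totals were 5.59 to 6.64 in the libraries labelled knockdown and 4.32 to 5.64 in the control libraries. 3222401L13Rik had 22 to 38 reads in the libraries labelled knockdown (mean 29.2 ± 6.53) and 28 to 34 in the control libraries (mean 30.8 ± 2.59, SD, n = 5 each, two-sided exact permutation, p = 0.659). Its log2 fold change was -0.17 (95% confidence interval -0.63 to 0.29), so its counts showed no clear fall in the libraries labelled knockdown and did not bear out the labels. Of its reads 48.0% were expected from background, a measure explained next, which limits this check. A background density, the reads per kilobase of exon and per 1000000 in 1135 olfactory receptor genes, was 0.257 ± 0.0674 in the libraries labelled knockdown and 0.599 ± 0.147 in the control libraries (SD, n = 5 each, two-sided exact permutation, p = 0.00794). The product of this density with exon length gave each gene a background share, the percentage of its reads expected from background alone. All 10 microglial markers passed the filter. On the scale of all genes 9 were called higher in the libraries labelled knockdown, with a median log2 fold change of 0.29, beside 22.9% of all tested genes. Scaled on genes with a background share under 5%, 1 of the 8 markers tested was called higher, beside 2.18% of genes. The markers' median log2 fold change was 0.039 there. Their levels differed widely, with Cx3cr1, the fractalkine receptor, at 234 ± 11.0 counts per 1000000 reads (CPM) in the libraries labelled knockdown and 191 ± 7.68 CPM in the control libraries (SD, n = 5 each). P2ry12 had 14.3 ± 0.991 CPM in the libraries labelled knockdown and 11.4 ± 2.39 CPM in the control libraries, and Tmem119 had 2.72 ± 0.911 CPM in the libraries labelled knockdown and 2.84 ± 1.19 CPM in the control libraries (SD, n = 5 each), with background shares of 8.19% and 34.6%. No marker of astrocytes, the oligodendrocyte lineage, neurons, fibroblasts and mural cells, endothelium, border macrophages, neutrophils or osteoclasts was at 0 in all libraries. Median background shares of these lists were 15.8% to 101%, except 1.86% for border macrophages, so a count above 0 alone does not show that the cells were present. Some markers stood well above background. The border macrophage marker Mrc1 averaged 739 CPM in the libraries labelled knockdown and 596 CPM in the control libraries (share 0.392%). The others of its list had shares of 0.773% (Ms4a7), 1.86% (Pf4), 40.6% (Cd163) and 98.2% (Lyve1). The astrocyte marker Gfap averaged 65.4 and 52.5 CPM (share 2.94%), and the others of its list had shares from 8.38% (Aqp4) to 62.6% (Gja1). Which cells these reads came from was not tested.

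All 10 cathepsin genes passed the filter on low counts. With counts scaled by TMM on all tested genes, 8 of them were higher in the libraries labelled knockdown by edgeR's quasi-likelihood test at an adjusted p under 0.05, and none was lower, also at an unadjusted p under 0.05 and by DESeq2. The calls fell on Ctsa, Ctsb, Ctsc, Ctsd, Ctsh, Ctsl, Ctss and Ctsz, with fold changes of 1.21 to 1.36, while Ctso and Ctsk were not called. On the same scale 22.9% of all 19263 tested genes were called higher and 31.3% lower. The median log2 fold change was 0.31 over the 10 cathepsin genes and -0.095 over all tested genes. Among the 853 tested genes with a background share under 1%, which include 6 of the cathepsins, the median was 0.28 and 746 were called higher, so a rise of about the cathepsins' size was shared by most genes of low background share. Markers of some other cell types went the other way. All 3 tested neuron markers were called lower (median background share of the list 57.1%), and the list summed to 8.44 to 13.99 CPM in the libraries labelled knockdown and 16.8 to 26.0 CPM in the control libraries. All 3 tested endothelial markers were called lower (median share 30.5%), with list sums of 21.7 to 26.5 CPM in the libraries labelled knockdown and 27.7 to 40.7 CPM in the control libraries. Of the 4 tested oligodendrocyte-lineage markers 2 were called lower (median share 49.6%), with list sums of 45.6 to 58.8 CPM in the libraries labelled knockdown and 53.4 to 59.7 CPM in the control libraries. Other lists did not go this way as a whole. Of the 4 tested border macrophage markers 3 were called higher and 1 lower (median share 1.86%), with a median log2 fold change of 0.29. Of the 7 tested astrocyte markers 2 were called higher and 2 lower (median share 15.8%). The part of any of these markers in the cathepsin values was not tested.

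Scaled instead on the 4729 genes with a background share under 5%, 3 of the 9 cathepsins tested were higher, Ctsb, Ctsl and Ctss, by 1.07 to 1.08-fold. On this scale, called the low-background scale from here on, 2.18% of genes were called higher and 1.88% lower, and the median log2 fold change was 0.070 for the cathepsins. Subtracting each gene's expected background reads as well left Ctsb and Ctsl called higher and no cathepsin lower, beside 0.719% of genes higher and 1.02% lower. With scaling on the 853 genes under a 1% share, 0 of 6 cathepsins were called by edgeR, beside 3 genes higher and 3 lower in all. At an unadjusted p under 0.05, 3 cathepsins were higher, with log2 fold changes of 0.070 for Ctsb (adjusted p = 0.0665), 0.074 for Ctsl (adjusted p = 0.148) and 0.053 for Ctss (adjusted p = 0.283). With background density as a covariate 0 of 10 were called by edgeR, beside 2 genes higher and 28 lower in all. Only Ctso was at an unadjusted p under 0.05 in that fit, lower at -0.44. Since the groups did not overlap in background density, a difference between them and a difference in background cannot be fully told apart. In bulk RNA, a change in the number of cells of a type and a change in RNA per cell cannot be told apart.

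**Figure D1:**
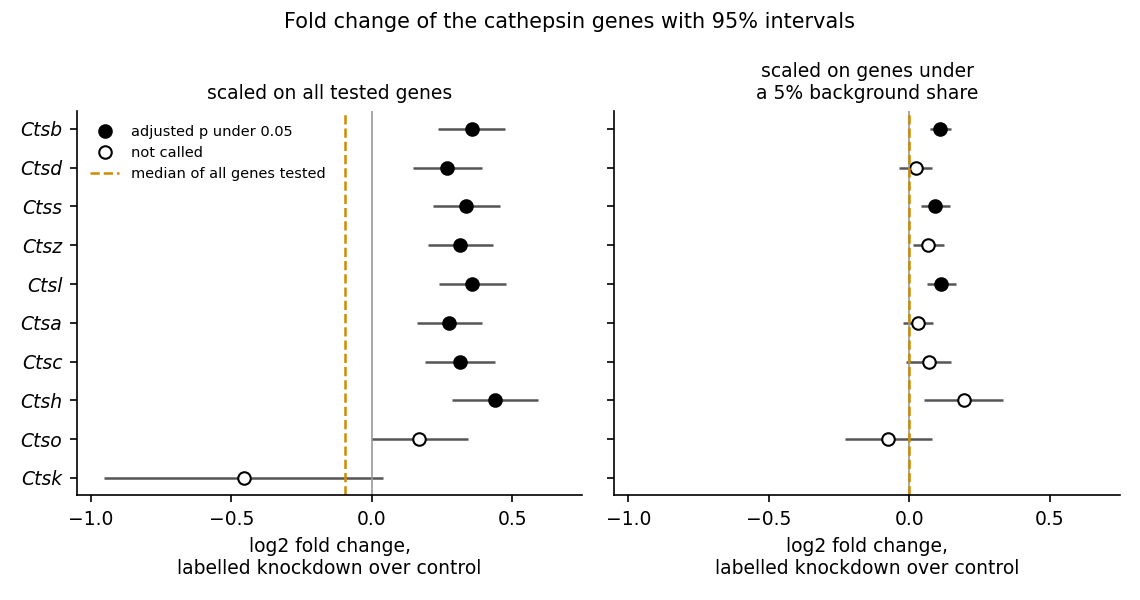
Log2 fold change of each cathepsin gene, libraries labelled knockdown over control libraries, with 95% confidence intervals from edgeR, on the scale of all tested genes and on that of genes with a background share under 5%. On the first scale 9 of the 10 points lie above 0 and Ctsk below it, and on the second scale Ctsb, Ctsl and Ctss alone are called.

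Together the 10 genes took 2.34% ± 0.0351 of all reads in the libraries labelled knockdown and 2.11% ± 0.0858 in the control libraries (SD, n = 5 each). Per length of exon, in TPM (reads per exon length, scaled to a sum of 1000000) over all 10 libraries, the order of mean levels was Ctsb at 4261 TPM, Ctsd at 4144, Ctss at 3191, Ctsz at 1562, Ctsl at 645, Ctsa at 479, Ctsc at 84.0, Ctsh at 24.3, Ctso at 18.2 and Ctsk at 7.31. Ctsb was above Ctsd in 8 of the 10 libraries, so this pair is not separated beyond its spread. Every other neighbouring pair kept its order in 10 of 10 libraries. The length used was that of all annotated exons of a gene together, the same in every library, so this agreement does not test it. By CPM, not divided by length, Ctsl averaged 2176 in the libraries labelled knockdown and 1699 in the control libraries. Ctsz, above it in TPM, averaged 1152 and 926 CPM. Among protein-coding genes Ctsb ranked 6 by mean TPM, Ctsd 7, Ctss 10, Ctsz 22, Ctsl 56 and Ctsa 84. The remaining members stood far lower, with Ctsc at rank 816, Ctsh at 3427, Ctso at 4403 and Ctsk at 7725.

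**Figure D2:**
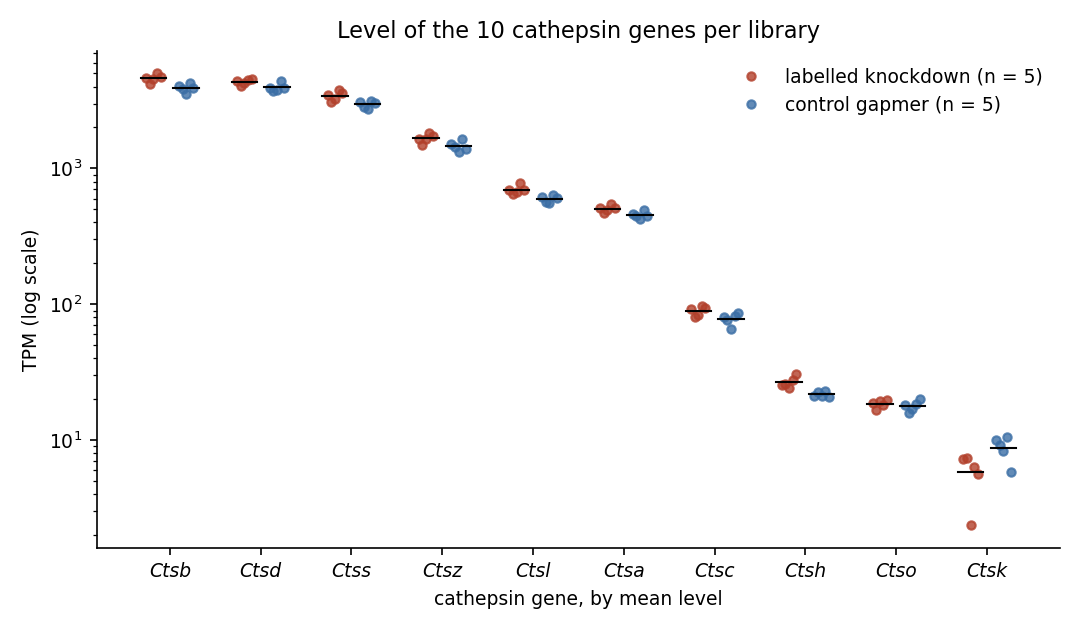
TPM of the 10 cathepsin genes in each library on a log axis, libraries labelled knockdown to the left of control libraries within each gene, with bars at the group means. The levels run from 4261 TPM for Ctsb to 7.31 TPM for Ctsk, a span far larger than the distance between groups. Ctsb and Ctsd, at 4261 and 4144 TPM, lie closer together than the group means of Ctsb, at 4601 and 3922 TPM.

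Ctsb, on chromosome 14 at 63122462 to 63145923 (GRCm38, forward strand, ENSMUSG00000021939), encodes cathepsin B, a cysteine protease with both endopeptidase and dipeptidyl carboxypeptidase activity. It had 12865, 13505, 14186, 12729 and 13626 CPM in knockdown-labelled replicates 1 to 5, against 10803, 9330, 10398, 10177 and 11568 CPM in control replicates 1 to 5. Every library labelled knockdown was above every control library. The log2 fold change on the all-gene scale was 0.36 (SE 0.060, edgeR adjusted p = 4.2e-06). On the low-background scale the values were 14654 to 15158 CPM in the libraries labelled knockdown and 13355 to 14174 CPM in the control libraries, again without overlap. The fold change there was 1.08 (95% confidence interval 1.05 to 1.11, edgeR adjusted p = 5.9e-05), and Ctsb was called with each of the 10 libraries left out in turn and with background reads subtracted (log2 fold change 0.081, edgeR adjusted p = 0.00284). A background share of 0.0209% means that almost none of its 44900 to 84047 reads per library were expected from background.

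Ctsl, on chromosome 13 at 64359337 to 64370890 (reverse strand, ENSMUSG00000021477), encodes cathepsin L, a strong lysosomal endopeptidase that also processes other proteases. It had 2092, 2253, 2260, 2125 and 2151 CPM in knockdown-labelled replicates 1 to 5, against 1775, 1463, 1732, 1619 and 1904 CPM in control replicates 1 to 5. These groups did not overlap on the all-gene scale, in TPM or on the low-background scale. The log2 fold change was 0.36 (SE 0.060, edgeR adjusted p = 4.1e-06) on the all-gene scale. It was 0.11 on the low-background scale (SE 0.026, edgeR adjusted p = 0.0038), called with each of the 10 libraries left out in turn. The values there were 2344 to 2469 CPM in the libraries labelled knockdown and 2094 to 2333 CPM in the control libraries. With background reads subtracted as well the log2 fold change was 0.086 (edgeR adjusted p = 0.0465).

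Ctss, on chromosome 3 at 95526786 to 95556403 (forward strand, ENSMUSG00000038642), encodes cathepsin S, an endopeptidase of antigen-presenting cells that stays active at neutral pH and cuts the invariant chain of MHC class II. It had 2169, 2255, 2274, 2154 and 2327 CPM in knockdown-labelled replicates 1 to 5, against 1859, 1547, 1791, 1662 and 1990 CPM in control replicates 1 to 5. The groups did not overlap. The log2 fold change was 0.34 (SE 0.060, edgeR adjusted p = 9.6e-06) on the all-gene scale. With low-background scaling it was 0.094 (SE 0.025, edgeR adjusted p = 0.0214), and 4 of the 5 libraries labelled knockdown were above every control library. That call was lost when knockdown-labelled replicate 5 (adjusted p = 0.0744), control replicate 2 (adjusted p = 0.0759) or control replicate 4 (adjusted p = 0.0947) was left out, with log2 fold changes of 0.087, 0.078 and 0.080. It was also lost with background reads subtracted, at 0.064 (edgeR adjusted p = 0.165).

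Ctsd, on chromosome 7 at 142375911 to 142388038 (reverse strand, ENSMUSG00000007891), encodes cathepsin D, the main aspartic protease of lysosomes. It had 4798, 5113, 5172, 4417 and 5122 CPM in knockdown-labelled replicates 1 to 5, against 4085, 3488, 4316, 4080 and 4454 CPM in control replicates 1 to 5. Knockdown-labelled replicate 4 lay below control replicate 5, so the groups overlapped. The log2 fold change was 0.27 (SE 0.061, edgeR adjusted p = 0.000244) on the all-gene scale and 0.024 (SE 0.029, edgeR adjusted p = 0.720) on the low-background scale, and its sign changed to -0.0061 once background reads were subtracted. Of its 2351 exon bases, 808 are shared with Gm49369 on the same strand, which had 0 reads in every library. How reads of shared bases were counted is not given in the sources used here, which limits the place of Ctsd in the order of levels.

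Ctsk, on chromosome 3 at 95499256 to 95509362 (forward strand, ENSMUSG00000028111), encodes cathepsin K, the collagen-degrading protease best known from osteoclasts. Its end lies 17.4 kb before the start of Ctss. It had 27, 35, 11, 23 and 24 reads in knockdown-labelled replicates 1 to 5, against 37, 27, 33, 34 and 24 reads in control replicates 1 to 5. Knockdown-labelled replicate 3 was the lowest library and control replicate 1 the highest, and the groups overlapped. It averaged 4.23 ± 1.56 CPM in the libraries labelled knockdown and 5.79 ± 0.935 CPM in the control libraries (SD, n = 5 each). The log2 fold change was -0.46 (SE 0.25, 95% confidence interval -0.95 to 0.041) and was not called (edgeR adjusted p = 0.113). Ctsk was thus the single member with a negative value on the all-gene scale. With library totals in place of TMM Ctsk was called lower, at -0.66 (edgeR adjusted p = 0.0409). With that scaling 7888 of all 19263 tested genes were called lower, and their median log2 fold change was -0.30 over all tested genes.

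The reads expected from background came to 12.6% of those of Ctsk, the largest share in the family, so it was not among the genes tested on the low-background scale. With the low-background scaling its level was 4.71 ± 1.74 CPM in the libraries labelled knockdown and 7.66 ± 1.37 CPM in the control libraries (SD, n = 5 each), with overlap. The 5 osteoclast markers summed to 21.4 to 28.8 CPM in the libraries labelled knockdown and 24.3 to 32.8 CPM in the control libraries. Of these 5 markers 1 was called lower on the all-gene scale, beside 31.3% of all tested genes. The 6 fibroblast and mural markers summed to 14.01 to 26.5 CPM in the libraries labelled knockdown and 30.0 to 42.0 CPM in the control libraries. Of these markers 4 of 4 tested were called lower, beside the same 31.3%, at a median background share of 101%. Whether these osteoclast or fibroblast and mural markers have a part in the value of Ctsk was not tested.

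**Figure D3:**
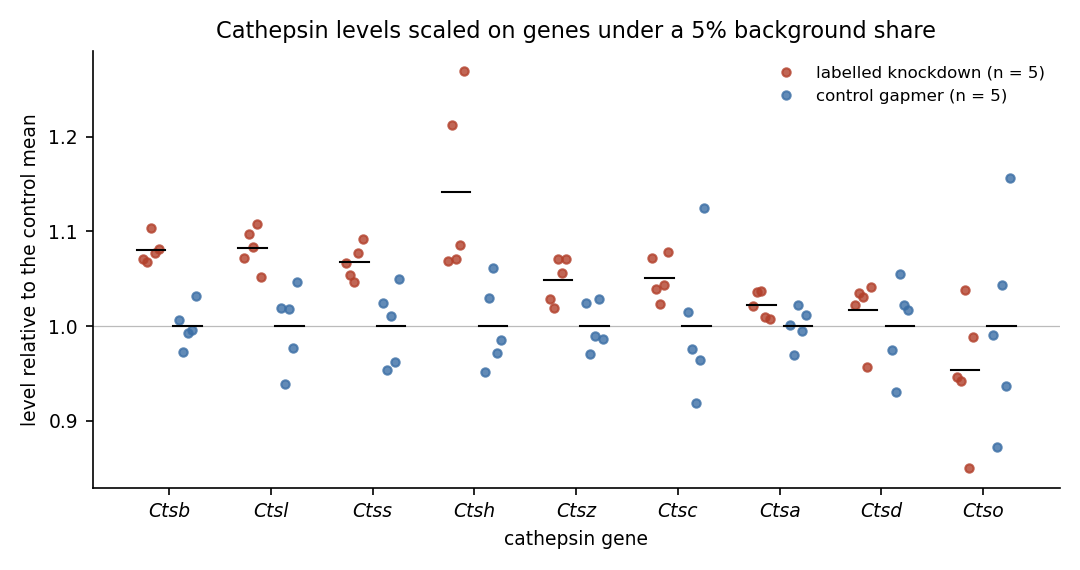
Level of 9 cathepsin genes in each library relative to the gene's mean over the control libraries, libraries labelled knockdown left of control libraries, on the low-background scale. Ctsb, Ctsh and Ctsl show no overlap between groups, Ctsh and Ctsl by a narrow margin. Ctsk, not tested on this scale, is left out.

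The exopeptidases Ctsa, Ctsc, Ctsh and Ctsz were each called higher on the all-gene scale and none was called on the low-background scale. Ctsh, on chromosome 9 at 90054152 to 90076089 (forward strand, ENSMUSG00000032359), encodes cathepsin H, an aminopeptidase. It had 52.9, 63.2, 56.7, 52.9 and 65.9 CPM in knockdown-labelled replicates 1 to 5, against 42.1, 40.7, 45.8, 40.9 and 45.5 CPM in control replicates 1 to 5, without overlap. Its log2 fold change on the all-gene scale, 0.44 (SE 0.077, edgeR adjusted p = 7.4e-06), was the largest of the 10. It was 0.19 on the low-background scale (95% confidence interval 0.052 to 0.34), also the largest, but with an adjusted p of 0.111 in edgeR. The groups were separated only narrowly there, with the lowest library labelled knockdown at 60.5 CPM and the highest control library at 60.1 CPM. Ctsh rests on 280 to 387 reads in the libraries labelled knockdown and 196 to 255 in the control libraries, and its background share was 3.65%.

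Ctsa, on chromosome 2 at 164832873 to 164841032 (forward strand, ENSMUSG00000017760), encodes cathepsin A, the carboxypeptidase that also protects beta-galactosidase and neuraminidase 1 in a lysosomal complex. It averaged 1142 ± 51.8 CPM in the libraries labelled knockdown and 943 ± 69.2 CPM in the control libraries (SD, n = 5 each), without overlap. Its log2 fold change was 0.28 (SE 0.059, edgeR adjusted p = 0.000106) on the all-gene scale and 0.031 (SE 0.026, edgeR adjusted p = 0.575) on the low-background scale. Ctsz, on chromosome 2 at 174427493 to 174439039 (reverse strand, ENSMUSG00000016256), encodes cathepsin Z, a carboxypeptidase. It averaged 1152 ± 54.1 CPM in the libraries labelled knockdown and 926 ± 62.4 CPM in the control libraries (SD, n = 5 each), also without overlap. Its log2 fold change was 0.31 (SE 0.058, edgeR adjusted p = 1.8e-05) on the all-gene scale and 0.069 (SE 0.027, edgeR adjusted p = 0.141) on the low-background scale, where 3 of the 5 libraries labelled knockdown were above every control library.

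Ctsc, on chromosome 7 at 88278085 to 88310888 (forward strand, ENSMUSG00000030560), encodes cathepsin C, the dipeptidyl peptidase that activates granule serine proteases in leukocytes. It averaged 249.9 ± 8.77 CPM in the libraries labelled knockdown and 201 ± 25.5 CPM in the control libraries (SD, n = 5 each). Control replicate 5, at 242 CPM, was above knockdown-labelled replicate 4, at 237 CPM, so the groups overlapped. Its log2 fold change was 0.31 (SE 0.062, edgeR adjusted p = 5e-05) on the all-gene scale and 0.070 (SE 0.040, edgeR adjusted p = 0.355) on the low-background scale.

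Ctso, on chromosome 3 at 81932601 to 81956725 (forward strand, ENSMUSG00000028015), encodes cathepsin O, a little-studied cysteine protease. It averaged 45.8 ± 4.76 CPM in the libraries labelled knockdown and 40.6 ± 6.61 CPM in the control libraries (SD, n = 5 each), with overlap, and was not called (log2 fold change 0.17, SE 0.087, edgeR adjusted p = 0.0895). It was called higher without knockdown-labelled replicate 4 (log2 fold change 0.24, adjusted p = 0.0150) or without control replicate 5 (0.28, adjusted p = 0.00516). Its sign depended on the scaling, with -0.034 by library totals and -0.074 on the low-background scale. Its background share was 4.87%.

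In all, 6 of the 10 genes had CPM values that did not overlap between the groups on the all-gene scale, all of them higher in the libraries labelled knockdown, and 12.6% of all tested genes did the same. In TPM this held for Ctsh and Ctsl, 2 of 10, beside 0.836% of all tested genes. On the low-background scale it held for Ctsb, Ctsh and Ctsl, 3 of 9, beside 2.81% of genes. The margin was narrow for Ctsh (60.5 against 60.1 CPM) and Ctsl (2344 against 2333 CPM). Other scalings shifted the median log2 fold change over the same 19263 genes, which was -0.30 by library totals and -0.24 by upper quartiles, against -0.095 with TMM. Without the filter 48620 genes were tested, with a median of -0.51 over all of them and 0.44 over the 10 cathepsins. With library totals 759 genes were higher and 7888 lower, against 4418 and 6033 with TMM, and 7 of the 10 cathepsins were called higher, Ctsd being lost at 0.065. With lane 8 alone, which holds 2 libraries of each group, Ctsh was the 1 cathepsin called (log2 fold change 0.48, edgeR adjusted p = 0.0444), beside 67 of 20424 genes called higher. On the low-background scale lane 8 alone called no cathepsin, beside 3 of 4740 genes higher and 5 lower. Ctsb, Ctsh, Ctsl and Ctss were at an unadjusted p under 0.05 in that fit. With lane 7 alone, 3 libraries of each group, 9 cathepsins were called higher on the all-gene scale, where 4135 of 19984 genes were called higher and 5770 lower. On the low-background scale lane 7 alone gave Ctsb and Ctsl, at 0.13 each, beside 35 of 4740 genes higher and 30 lower.

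**Figure D4:**
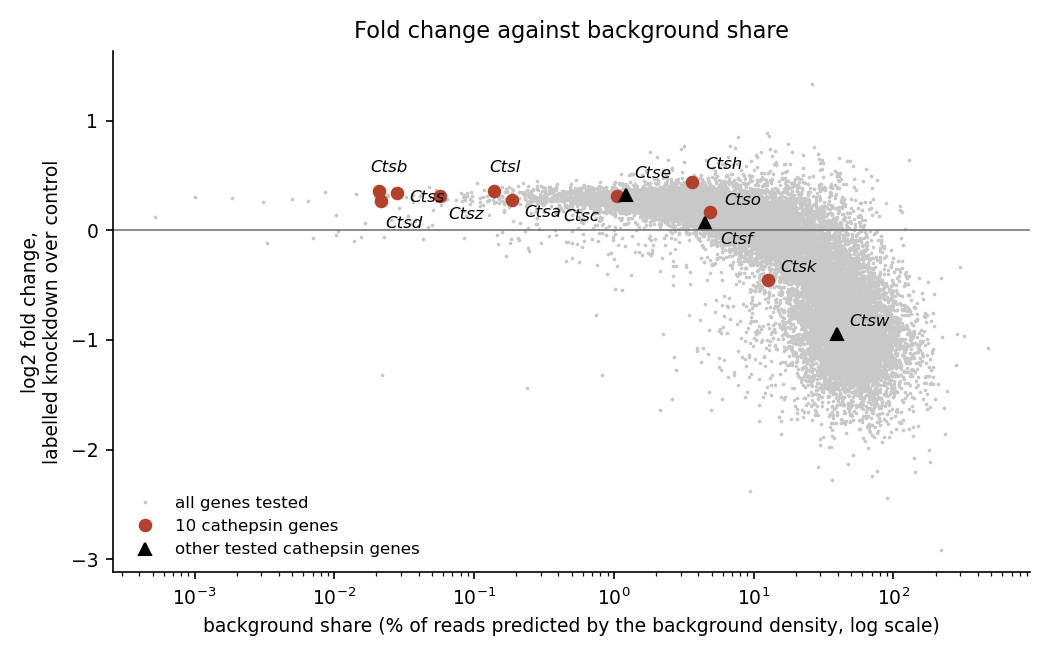
Background share of each tested gene on a log axis against its log2 fold change, libraries labelled knockdown over control libraries, on the all-gene scale, with the 10 cathepsin genes marked. Cathepsins with a share under 5% lie above 0 and Ctsk, at 12.6%, lies below it.

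Shares of reads within the family do not depend on the scaling between libraries. Ctsb took 52.7% ± 0.402 of the family's reads in the libraries labelled knockdown and 51.9% ± 0.579 in the control libraries (SD, n = 5 each), with overlap. Ctsd took 19.4% ± 0.553 in the libraries labelled knockdown and 20.2% ± 0.674 in the control libraries (SD, n = 5 each), also with overlap. Ctsa took 4.41% to 4.58% in the libraries labelled knockdown and 4.59% to 4.74% in the control libraries, the single gene whose share did not overlap between the groups. The ratio of Ctsb to Ctsd reads was 2.72 ± 0.0974 in the libraries labelled knockdown and 2.56 ± 0.110 in the control libraries (SD, n = 5 each), with overlap. These shares were not tested.

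Within groups the abundant members varied together from library to library. For the 8 members with a mean of at least 50 CPM, over the 10 libraries and with each group's mean removed, Pearson's r of log2 CPM was 0.96 for Ctsa with Ctsb and 0.95 for Ctsl with Ctss, and it was lowest for Ctsc with Ctsh, at 0.43. These values share the scaling factor of each library and are given as a description. Control replicate 2 had the highest background density, 0.816, and the lowest CPM of all 10 libraries for Ctsa, Ctsb, Ctsc, Ctsd, Ctsh, Ctsl, Ctso, Ctss and Ctsz. The genes most like the family sum by the same measure, among 3800 genes of at least 50 CPM, were Apobec1 at 0.99, Eif4g2 at 0.99, Lgmn at 0.99, Hsd17b12 at 0.99 and Yy1 at 0.98.

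The study links the target RNA to PU.1, the myeloid transcription factor encoded by Spi1, so promoters were read for its core motif and for the E-box bound by the TFEB family of lysosomal regulators. RefSeq promoter windows (GRCm38.p6, 250 bases before to 50 after each start, 300 bases) were found for 8 of the 10 genes, in 9 windows; Ctsb and Ctsh had none. On either strand, GAGGAAGT occurred in the windows of Ctss and Ctsc and in 3.20% of all 32851 windows. The stretches that hold it, where it reads ACTTCCTC on the gene's strand, and the stretches of Ctsa and Ctsd with GTCACGTG, the E-box form of lysosomal genes that contains CACGTG and reads CACGTGAC on the other strand, are printed 5′ to 3′ with the motif in capitals.
Ctss, chr3:95526773-95526802, forward strand: aatgaaagttcACTTCCTCattgtggatgc
Ctsc, chr7:88277923-88277952, forward strand: gtcactaactaACTTCCTCaggccacctcg
Ctsa, chr2:164833748-164833777, forward strand: atgagcaaactGTCACGTGatgcagatgct
Ctsd, chr7:142387907-142387936, reverse strand: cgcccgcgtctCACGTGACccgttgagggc

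The PU.1 core began 2 bases before the RefSeq start of Ctss and 151 bases before that of Ctsc. GTCACGTG occurred in the windows of Ctsa and Ctsd and in 2.25% of all windows, beginning 14 bases before the start in Ctsa, with another match on the other strand just after the start, and at 98 and 245 bases before it in Ctsd. CACGTG alone occurred in the windows of Ctsa, Ctsd and Ctsl and in 7.15% of all windows. GGGCGG was in the windows of Ctsc, Ctsd, Ctso, Ctss and Ctsz (35.7% of all windows), CCAAT in those of Ctso and Ctsz (37.4%) and TATAAA in that of Ctss (13.6%). A match describes these letters and is not evidence of binding. On the low-background scale the log2 fold change was 0.094 for Ctss and 0.070 for Ctsc, which hold the PU.1 core. It was 0.031 for Ctsa and 0.024 for Ctsd, which hold the longer E-box, and 0.11 for Ctsl, which holds CACGTG without the longer form. Ctsz and Ctso, which hold none of these, had 0.069 and -0.074. Ctsk, also without them, was not tested on that scale. These differences between genes were not tested.

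Spi1 itself averaged 240.0 ± 15.8 CPM in the libraries labelled knockdown and 206 ± 13.1 CPM in the control libraries (SD, n = 5 each). It was called higher on the all-gene scale (log2 fold change 0.22, SE 0.060, edgeR adjusted p = 0.0016) and had -0.026 on the low-background scale, not called. Of the 6 transcription factors listed, 3 were higher and none lower on the all-gene scale, beside 22.9% higher and 31.3% lower of all tested genes. The 3 were Spi1, Mitf at 0.26 and Tfe3 at 0.23, the last of which had -0.011 on the low-background scale. Tfeb, the best-known regulator of lysosomal genes, had 0.071 (edgeR adjusted p = 0.520). None of the 3 factors that could be tested on the low-background scale was called there by edgeR, 0 also at an unadjusted p under 0.05, beside 2.18% of genes called higher and 1.88% lower.

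Of 13 other cathepsin genes, 3 passed the filter. Ctse, an endosomal aspartic protease, averaged 118 ± 7.14 CPM in the libraries labelled knockdown and 94.3 ± 4.79 CPM in the control libraries (SD, n = 5 each) and was called higher (log2 fold change 0.32, edgeR adjusted p = 3.3e-05), with 0.079 and no call on the low-background scale. Ctsf, a cysteine protease of lysosomes, had 0.063 on the all-gene scale and -0.18 on the low-background scale, called on neither, though below an unadjusted p of 0.05 in the second. Ctsw, a protease of cytotoxic lymphocytes, averaged 1.38 ± 0.596 CPM in the libraries labelled knockdown and 2.67 ± 0.599 CPM in the control libraries (SD, n = 5 each) and was called lower (log2 fold change -0.94, edgeR adjusted p = 0.0245), with a background share of 39.2%. The call for Ctsw was lost without knockdown-labelled replicate 2 (adjusted p = 0.105), knockdown-labelled replicate 5 (0.0563), control replicate 1 (0.0681) or control replicate 2 (0.0549).

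The 9 placental cathepsins, rodent genes clustered on chromosome 13 and known from placenta, gave a reading of background inside the family. They held 80 reads in all in the 5 libraries labelled knockdown, where 125 were expected from the background density, and 190 in the 5 control libraries, where 239 were expected. Per library that was 16 ± 2.45 reads in the libraries labelled knockdown and 38 ± 11.1 reads in the control libraries (SD, n = 5 each). None of the 9 passed the filter.

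Of 17 inhibitor genes, 4 passed the filter, and 3 were higher and none lower on the all-gene scale, beside 22.9% higher and 31.3% lower of all tested genes. Cst3, cystatin C, the main secreted cystatin, averaged 988 ± 54.6 CPM in the libraries labelled knockdown and 800.4 ± 63.3 CPM in the control libraries (SD, n = 5 each, log2 fold change 0.30, edgeR adjusted p = 3.6e-05). Cst7, cystatin F, an inhibitor of cathepsin C in immune cells, had 0.36 (adjusted p = 0.00445) and Cstb, the cytosolic cystatin B, 0.17 (adjusted p = 0.0342), whose sign was negative on the low-background scale (-0.081) and with library totals (-0.040). The Cstb call was lost with any of knockdown-labelled replicates 2, 3 and 5 or control replicates 1, 2 and 4 left out (log2 fold changes 0.13 to 0.18). None of the 3 tested on the low-background scale was called by edgeR, beside 2.18% of genes higher and 1.88% lower, with Cst3 at an unadjusted p under 0.05. The fourth, Ctla2a, a peptide like the propeptide of cathepsin L, was not called (0.63, edgeR adjusted p = 0.154).

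All 14 genes of lysosomal sorting and processing were tested, and 10 were higher and none lower on the all-gene scale, with a median log2 fold change of 0.23. Of all tested genes 22.9% were higher and 31.3% lower there. Lgmn, legumain, which cleaves cathepsins into their mature chains, averaged 2163 ± 95.4 CPM in the libraries labelled knockdown and 1757 ± 138 CPM in the control libraries (SD, n = 5 each, log2 fold change 0.30, edgeR adjusted p = 4.1e-05). Grn, the precursor of granulins that are freed by cathepsins, had 0.30, and Psap, prosaposin, the precursor of saposins, had 0.33. On the low-background scale, where 2.18% of genes were called higher and 1.88% lower, the list's median was 0.0070. Psap was the 1 of 12 genes called there, at 0.079 (edgeR adjusted p = 0.0476). That call was lost with background reads subtracted, at 0.049 (adjusted p = 0.305). Psap at 2100 CPM in control replicate 2 stood apart from the other control libraries.

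All 14 substrates and partners were tested, with 5 higher and 2 lower on the all-gene scale, beside 22.9% higher and 31.3% lower of all tested genes. None of 6 was called on the low-background scale by edgeR, beside 2.18% of genes higher and 1.88% lower, with Tlr7 and Tlr13 at an unadjusted p under 0.05. Tlr7 and Tlr13, endosomal receptors that cathepsins cleave, had 0.34 and 0.33, and Unc93b1, which escorts them, had 0.27, turning to -0.0055 with background reads subtracted. H2-Aa, an MHC class II chain, and Ciita, the activator of class II genes, were the 2 called lower, at -0.86 (edgeR adjusted p = 0.0372) and -0.85 (adjusted p = 0.000768), with background shares of 77.6% and 54.5%. The H2-Aa call was lost with any of knockdown-labelled replicates 2, 3 and 5 or control replicates 3 and 4 left out (adjusted p 0.0694 to 0.125), and by DESeq2 (-0.81, adjusted p = 0.0706). Cd74, the invariant chain cut by cathepsin S and picked after its values were seen, averaged 18.8 ± 4.50 CPM in the libraries labelled knockdown and 13.6 ± 1.58 CPM in the control libraries (SD, n = 5 each), called higher at 0.47 (edgeR adjusted p = 0.0027) and not called on the low-background scale, at 0.22.

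**Figure D5:**
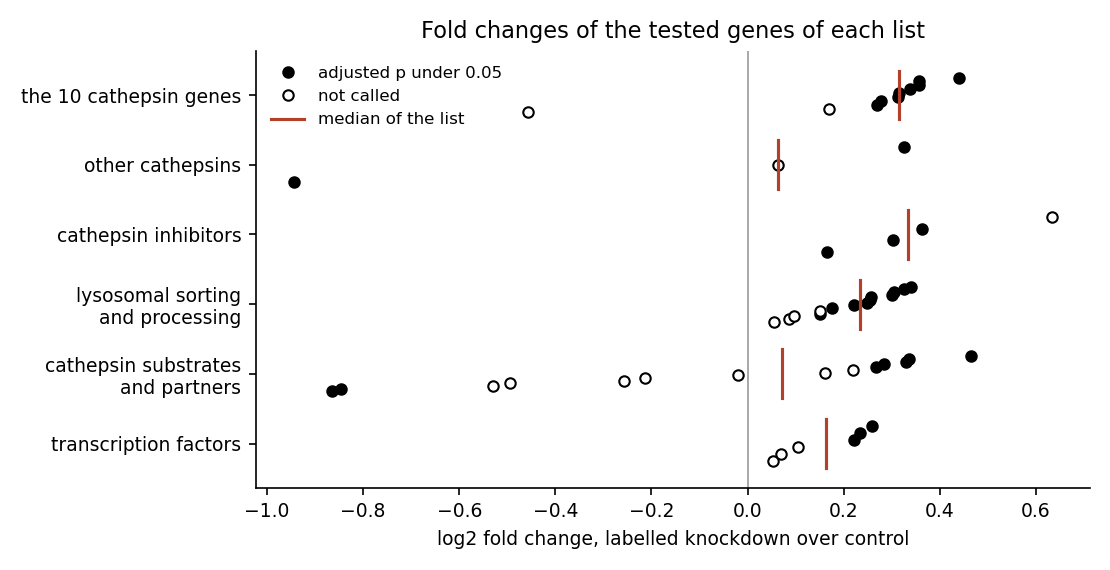
Log2 fold changes, libraries labelled knockdown over control libraries on the all-gene scale, of the tested genes of the cathepsin family and of the lists of other cathepsins, inhibitors, sorting and processing genes, substrates and partners, and transcription factors. The median was 0.31 for the cathepsins, 0.063 for 3 other cathepsins, 0.33 for 4 inhibitors (the uncalled Ctla2a among them), 0.23 for the sorting and processing genes, 0.071 for substrates and partners and 0.16 for transcription factors.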

How the data were processed

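Total RNA libraries were made with a SMARTer stranded Pico kit, per the labels' protocols. Raw counts per gene, 1 file per library, are what the authors deposited. The submitters' processing notes name bcl2fastq and GRCm38 (mm10). The choice of aligner, counter, strand setting and annotation is not given in the sources used here, and reads of overlapping or antisense genes (Ctsb with Fdft1, Ctsa with Pltp and Neurl2, Ctsl with Gm47123, Ctsd with Gm49369) could not be told apart. Symbols and exon lengths came from GENCODE M21, matched by 55230 of 55471 genes, and 92 spike-ins with 0 to 2 reads per library were left out. Replicates 1 to 3 of both groups ran on lane 7 and replicates 4 and 5 on lane 8, from the names of the deposited files. No libraries of a group agreed within counting noise.

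Genes were filtered with filterByExpr, scaled with TMM and tested with edgeR 4.0.16 (R 4.3.3, robust quasi-likelihood fit, group only, Benjamini-Hochberg adjustment over all tested genes, threshold 0.05). The fit was also run on simulated counts without a difference in background density between the groups, so that run does not test calls under such a difference. CPM are TMM-scaled counts per 1000000 reads, and TPM are reads per exon length. Other fits used DESeq2 1.42.0, other scalings and filters, replicate and lane terms, each lane alone, each library left out, and background density as a covariate. Single measures had exact two-sided permutation tests over 252 splits. The members, the lists and the background measure were chosen with earlier results of these data known. The rule named every member, and of each list up to 3 genes with the smallest p and up to 2 with the highest mean CPM, and any called against its list. Genes most like the family sum were the 5 with the highest within-group correlation. Cx3cr1, P2ry12, Tmem119, Mrc1, Ms4a7, Pf4, Cd163, Lyve1, Gfap, Aqp4, Gja1, Ctla2a, Tfeb and Cd74 were picked after their values were seen. Python 3.11.15 and matplotlib 3.10.9 drew the figures.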

Additional observations from a re-analysis of the deposited data

Results flagged for a closer look

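Psap, the precursor of the saposins, was the 1 gene flagged, because control replicate 2, at 2100 CPM on the all-gene scale, lay farther below the other 4 control libraries than Dixon's criterion allows. That library also had the highest background density and the lowest CPM of 9 cathepsin genes. The check was run on 54 sets of 5 libraries, of which chance flags about 1 in 20.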

How the results depend on the processing

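The 8 calls of the cathepsin family held with DESeq2, upper-quartile scaling, a lane term, a stricter filter and each library left out. On all genes with TMM, 4418 genes were higher and 6033 lower, with 8 cathepsins higher, 0 lower and a median log2 fold change of 0.31. Leaving out each library gave 4032 to 5015 higher, 4928 to 6967 lower, 8 to 9 cathepsins higher and medians of 0.29 to 0.39. Upper-quartile scaling gave 1685 higher and a median of 0.17, with Ctsf at -0.083. Library totals gave 759 genes higher and 7888 lower, with 7 cathepsins higher, 1 lower (Ctsk at -0.66) and a median of 0.11. Ctso was at -0.034, Ctsf at -0.14 and Cstb at -0.040 there. No filter gave a median of 0.44, and the stricter filter of 5 CPM in 5 libraries gave 2057 higher, 2239 lower and a median of 0.20, with Ctsf at -0.0555.

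The low-background scale gave 103 higher, 89 lower, 3 cathepsins and a median of 0.070, with Ctso at -0.074, Ctsf at -0.18, Cstb at -0.081, Tfe3 at -0.011 and Spi1 at -0.026. Background subtraction gave 34 higher, 48 lower, 2 cathepsins and a median of 0.055, with Ctsd at -0.0061, Ctso at -0.042, Ctsf at -0.16, Cstb at -0.11, Unc93b1 at -0.0055 and Spi1 at -0.050. Background density as a covariate gave 2 higher, 28 lower, 0 cathepsins and a median of 0.048, with Ctsa at -0.0014, Ctsc at -0.012, Ctsd at -0.080, Ctsk at 0.076, Ctso at -0.44, Ctsw at 0.028, Cst7 at -0.087, Cstb at -0.25, Ciita at 0.23 and Mitf at -0.002. The groups do not overlap in density, so the fit has little to tell them apart by. Lane 8 alone gave 67 higher, 153 lower and 1 cathepsin, with 2 libraries of each group.

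Chosen after seeing the data, the low-background scale with each library left out called 2 to 3 cathepsins, beside 53 to 124 genes higher and 42 to 83 lower in all. Ctso was at -0.0701, -0.0692, -0.1071, -0.0366, -0.0849, -0.0774, -0.1141, -0.0581, -0.0981 and -0.0114 in these fits. On that scale lane 7 alone gave 2 cathepsins, beside 35 genes higher and 30 lower. Lane 8 alone gave 0, beside 3 genes higher and 5 lower, with Ctsd at -0.030 and Ctso at -0.19. Scaling on the 853 genes with a background share under 1% gave 0 of 6 cathepsins (3 genes higher and 3 lower in all), with Ctsa at -0.0094 and Ctsd at -0.017. The causes of these changes were not tested beyond the fewer genes and libraries each uses.

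No pairing of the libraries by replicate number was seen, which does not exclude one. Same-numbered libraries had correlations of -0.07, -0.22, 0.04, 0.19 and 0.15, and only number 5 correlated best with itself. With the replicate number as a block, 4405 genes were higher, 5949 lower, 8 cathepsins higher, and the median was 0.32. Intervals cover the spread between libraries, and Ctsk, with 11 to 37 reads, is the member that depth limits most.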
